A study of Homo sapiens with 6 samples.

Results

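The genes described here are those that were near silent in untreated LS 174T cells and carried reads in every library given propionate. Members were chosen by their raw read counts: a gene symbol had to have 15 or fewer reads summed over the 3 control libraries and 10 or more in each of the 3 propionate libraries. This rule was met by 107 of 24462 symbols. Of them, 10 are not described, namely ANGPTL4, APLP1, CREB3L3, EPAS1 and symbols that begin with SLC, ZNF or LINC, which left 97 members. Symbols that begin with GPR, KCN, COL or IL were also set aside, but none met the counts. They were 1.83% of the 5302 symbols that were near silent in control and had a read in any library. The rule used the read counts of both groups, so the members' difference between groups is given as a description, with no test.

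LS 174T is a human colorectal adenocarcinoma line that makes mucins and serves as a model of goblet cells. The control group was left untreated and the propionate group received 4 mM propionate, a short-chain fatty acid made by gut bacteria, for 4 h, with 3 libraries each. RNA was made into QuantSeq libraries, a kit that reads the 3' ends of polyadenylated transcripts, and reads were counted per gene. Whether libraries of 1 group are separate cultures is not said in the labels, so a p-value reflects library-to-library spread that could be technical.

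A gene that a cell line does not transcribe may lack the activating factors of its home tissue, or may sit in chromatin whose histones carry few acetyl groups or carry Polycomb marks. Propionate is known as a weak inhibitor of zinc-dependent histone deacetylases and as an agonist of free fatty acid receptors on gut cells. Genes with tissue-restricted transcription, among them neuronal and germline genes, are known to gain transcripts when such deacetylases are inhibited.

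The promoters of 4 members are shown, chosen among the members with a promoter entry. SYNPO, TBXA2R and DACT3 are among the 5 members with most propionate reads and had the most of those with an entry. FAM212A (now INKA1) was the only member with an entry that had no control read. Few control reads do not set these 4 apart from other members. Each sequence holds the 250 bases before the RefSeq transcription start in GRCh38.p14, read 5′ to 3′ on the gene's strand. Capitals mark the GC box, GGGCGG or its other strand CCGCCC, the letters bound by SP-family transcription factors. SYNPO lies on the plus strand at chr5:150600826-150601075, TBXA2R on the minus strand at chr19:3606876-3607125, DACT3 on the minus strand at chr19:46661183-46661432 and FAM212A on the plus strand at chr3:49803011-49803260.
SYNPO: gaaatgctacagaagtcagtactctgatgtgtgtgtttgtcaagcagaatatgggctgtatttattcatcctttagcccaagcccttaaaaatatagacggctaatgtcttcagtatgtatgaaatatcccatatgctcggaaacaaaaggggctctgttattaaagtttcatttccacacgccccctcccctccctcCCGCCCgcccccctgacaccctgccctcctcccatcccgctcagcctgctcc
TBXA2R: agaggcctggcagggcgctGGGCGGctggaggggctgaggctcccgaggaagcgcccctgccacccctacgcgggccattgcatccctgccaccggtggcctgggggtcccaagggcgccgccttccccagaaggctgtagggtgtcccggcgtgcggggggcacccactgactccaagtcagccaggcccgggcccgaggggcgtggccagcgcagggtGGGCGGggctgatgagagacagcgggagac
DACT3: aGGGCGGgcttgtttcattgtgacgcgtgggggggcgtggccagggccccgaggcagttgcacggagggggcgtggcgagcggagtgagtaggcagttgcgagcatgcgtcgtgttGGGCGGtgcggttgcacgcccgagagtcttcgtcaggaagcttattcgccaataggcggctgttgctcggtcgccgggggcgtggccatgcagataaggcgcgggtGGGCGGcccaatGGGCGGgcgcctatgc
FAM212A: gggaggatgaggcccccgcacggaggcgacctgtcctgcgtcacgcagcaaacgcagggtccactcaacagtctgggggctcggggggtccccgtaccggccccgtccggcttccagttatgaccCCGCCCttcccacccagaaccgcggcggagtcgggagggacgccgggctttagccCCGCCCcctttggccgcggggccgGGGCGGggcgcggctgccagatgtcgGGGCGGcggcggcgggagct
The window of SYNPO holds 1 GC box, that of TBXA2R 2, and those of DACT3 and FAM212A 4 each. The same letters occur in 66.2% of the 10702 tested genes with a promoter entry and in 42.3% of all 27305 RefSeq promoters, each cut to this window, so holding a GC box does not set these 4 apart. The window of SYNPO is 49.2% G and C with 6 CpG, and that of FAM212A is 75.2% with 30 CpG, so these promoters differ widely in composition. A promoter entry was found for 68 of the 97 members, of which 45 hold a GC box. With under 80% of the members matched, a comparison of these shares is void and nothing is read from it.

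Library totals were 11603288 to 12746170 reads, and 3 reads in a library correspond to 0.235 to 0.259 reads per 1000000. CPM below are reads per 1000000, scaled by TMM factors. The control limit of 15 reads equals 0.424 reads per 1000000 over the 35349208 control reads. In bulk RNA, transcripts in fewer cells and fewer transcripts per cell cannot be told apart, and intervals made from reads cover counting error only. The line's own colon and goblet markers, 22 genes led by KRT18, had reads in full and summed to 5870 to 6863 CPM in control and 6602 to 7308 CPM with propionate. Leukocyte markers summed to 3.25 to 5.13 and 6.12 to 9.23 CPM, with CD3D, CD3E, CD2 and TYROBP at 0 in all 6 libraries. Fibroblast markers summed to 4.08 to 8.56 and 6.68 to 9.23 CPM, with DCN, PDGFRA and POSTN at 0. Endothelial markers summed to 1.08 to 4.10 and 2.48 to 4.74 CPM, with 6 of 10 at 0, CDH5, VWF and KDR among them. Neuronal markers summed to 77.0 to 87.2 and 122.6 to 152.3 CPM, nearly all of it ENO2, with DCX at 0. Of the neuronal markers, edgeR called 2 higher, ENO2 and MAP2, and 1 lower, SYT1. Whether these marker differences have a part in the members' values was not tested.

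All members together had 318, 304 and 310 reads in control libraries 1, 2 and 3 and 2284, 2525 and 2327 reads in propionate libraries 1, 2 and 3. Their summed level was 27.8, 26.0 and 25.8 CPM in control and 177.0, 202.7 and 196.7 CPM with propionate. The 3 libraries of each group lay close together. Single members had 0 to 15 control reads, with a median of 10, and 33 to 179 propionate reads, with a median of 65. In each of the 97, the lowest propionate library had more reads than the highest control library, beside 22.4% of all tested genes whose propionate values all lay above their control values. The rule almost fixes this separation, so nothing is read from it, here or where it is described for single members below. Of the 97, 89 had enough reads for the edgeR fit and 89 were called higher, against 17.2% of the 13605 genes tested, and the rule likewise leads to these calls. With the replicate block 88 were called higher, and with DESeq2 82. ACKR2, C20orf195, CDKL2, CFP, FRG2EP, LOC200772, MPP2 and SCNN1D did not pass the filter on low counts.

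**Figure D1:**
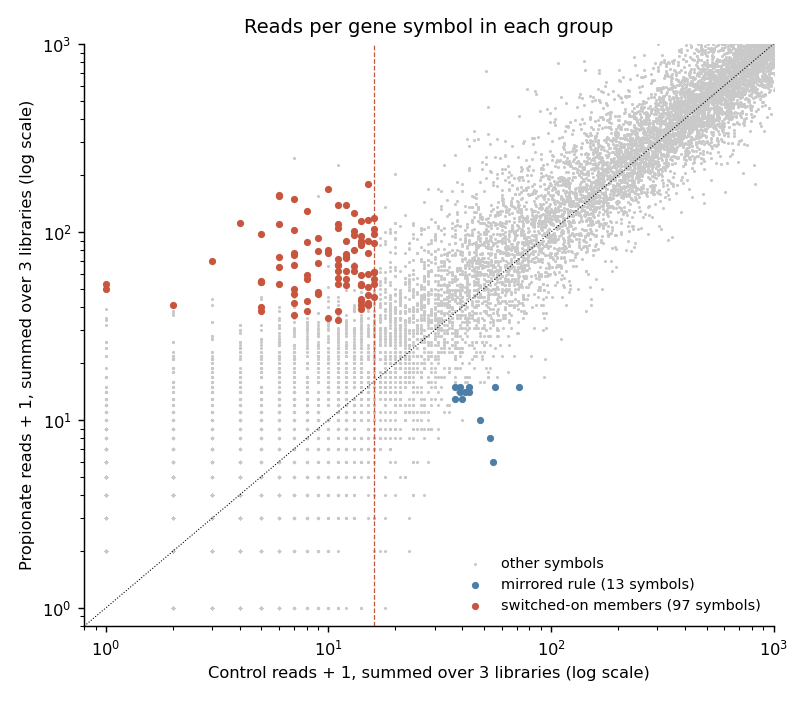
Reads per gene symbol summed over the 3 control libraries (x axis, reads + 1, log scale) and the 3 propionate libraries (y axis, reads + 1, log scale). Red points are the 97 switched-on genes, left of the dashed line at the limit of 15 control reads, blue points are the 13 symbols of the mirrored rule, grey points are other symbols, and the dotted line marks equal reads.

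Exchanging the groups gives a measure of how often reads appear or vanish in these libraries. The mirrored rule, 15 or fewer reads over the propionate libraries and 10 or more in each control library, was met by 13 symbols, against 97 for the rule itself. The symbol with most control reads among the 13 was RYR3, a ryanodine receptor calcium channel, with 26, 22 and 23 control reads and 8, 4 and 2 propionate reads. MYO16, POPDC2 and GPX8 were other coding genes among them. With no minimum per library, 682 symbols at or under the limit in control were above it with propionate, and 219 were the other way round. Most silent symbols stayed so, since 9659 were at or under the limit in both groups. More genes were switched on than off under all 12 other settings of the rule, from 52 against 3 with a limit of 10 reads to 164 against 24 with a limit of 20. Without propionate library 1 the counts were 148 and 12, without control library 1 they were 116 and 23, and without control library 3 they were 118 and 21.

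Propionate left the members at low levels. Their mean in the propionate libraries was 0.888 to 4.84 CPM, with a median of 1.76 CPM, where the median of all tested genes was 22.7 CPM. In the propionate group they stood above 27.3% to 41.6% of the symbols detected. Over 4 CPM were 5 members, ARC, SYNPO, GLI1, TBXA2R and DACT3, and 39 were over 2 CPM. The ratio of propionate to control reads, each over its library totals, was 2.73 to 38.2 in the 95 members with a control read, with a median of 6.54. It exceeded 10 in 25 members, and in 38 the lower bound of its exact binomial 95% interval exceeded 4. The few control reads make it sensitive to single control libraries: leaving out 1 moved the ratio by over 1.5 times in 47 of the 95 members and left 5 with no control read, and leaving out a propionate library did so in 0. The lowest ratio without a library was 2.23. The rule selected on these same reads, which favours high ratios, so the ratios and intervals of members are a description and not a test. The highest propionate library was 1.01 to 3.19 times the lowest, with a median of 1.64, and it was library 1 in 20 members, library 2 in 46 and library 3 in 31.

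**Figure D2:**
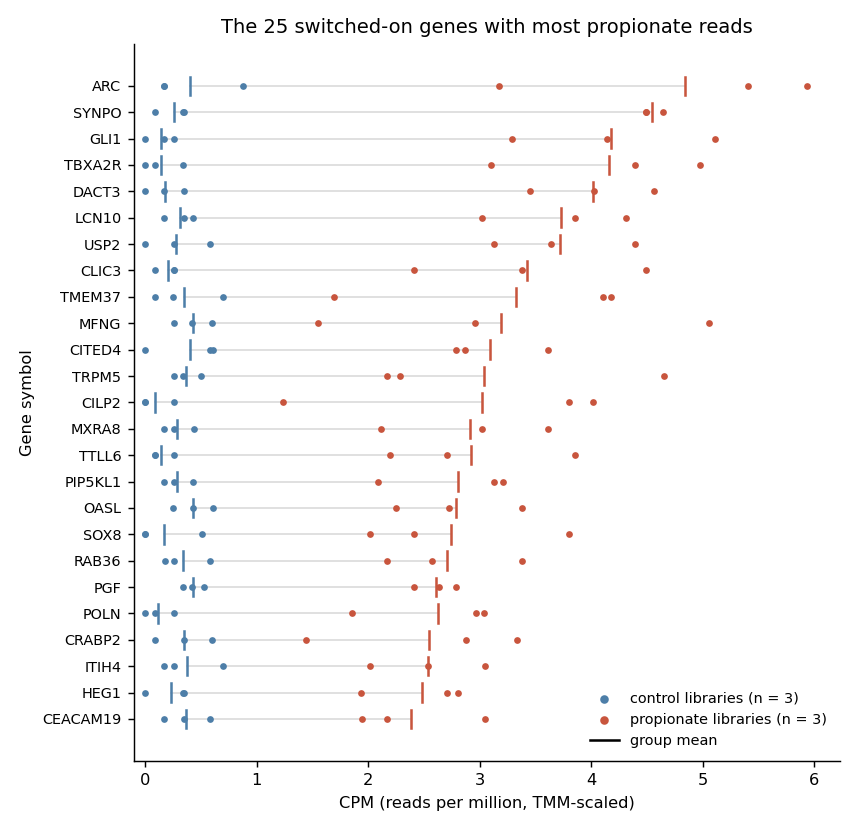
CPM (x axis, TMM-scaled) of the 25 members with most propionate reads (y axis) in each control library (blue points) and propionate library (red points), with ticks at the group means (n = 3). For each gene the red points lie to the right of the blue ones, and the red points of MFNG and CILP2 are spread most widely.

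Genes known from neurons and synapses gave 7 members, of which ARC and SYNPO had the most propionate reads of all members. ARC, an activity-induced gene whose product assembles into capsids and regulates glutamate receptors at synapses, had 10, 2 and 2 control reads and 41, 74 and 64 propionate reads. Control library 1 held most of the ARC control reads, and the groups did not overlap. The ratio was 12.2, with a 95% interval of 7.09 to 22.8, and without control library 1 it was 28.7. SYNPO, synaptopodin, an actin-bound protein of dendritic spines and of kidney podocytes, had 4, 4 and 1 control reads and 58, 56 and 55 propionate reads. Its propionate libraries were almost equal, and its ratio was 17.9 (95% interval 9.23 to 39.9). In CPM, SYNPO was 0.258 ± 0.152 in control and 4.55 ± 0.0888 with propionate (SD, n = 3). The other 5 of the group had 33 to 89 propionate reads: MAP1A of the microtubule cytoskeleton, SYNGR3 of synaptic vesicles, SYT15 of the synaptotagmin family, MPP2 of synaptic scaffolds, and RAPSN, which clusters acetylcholine receptors at the muscle endplate. RAPSN had the fewest propionate reads of all members, 11 in each library, after 4, 5 and 1 in control.

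Among the members, 7 were transcription factors or cofactors. GLI1, the zinc finger factor and target gene of Hedgehog signalling, had 3, 2 and 0 control reads and 66, 41 and 49 propionate reads, a ratio of 29.8 (95% interval 12.5 to 93.1). Without control library 1 the ratio was 50.1 and without control library 3 it was 19.8. The lowest GLI1 propionate library was far above the highest control library. CITED4, which binds the acetyltransferases CBP and p300, had 7, 0 and 7 control reads and 37, 45 and 33 propionate reads. SOX8, an HMG-box factor of neural crest and testis, had 0, 6 and 0 control reads and 26, 30 and 45 propionate reads. Its 6 control reads all came from library 2. The others were GATA3 of T cells and epithelia, TOX2, the blood factor LYL1 and POU4F1 of sensory neurons, with 60 to 79 propionate reads each. POU4F1 had 4, 11 and 0 control reads.

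Receptors, ligands and their regulators formed the largest named group, with 15 members. TBXA2R, the G protein-coupled receptor of thromboxane A2, had 1, 4 and 0 control reads and 40, 62 and 52 propionate reads, a ratio of 29.4 (95% interval 12.3 to 91.9). This ratio was 97.9 without control library 2 and 19.5 without control library 3. DACT3, an inhibitor of Wnt signalling that binds Dishevelled, had 4, 2 and 0 control reads and 52, 43 and 54 propionate reads, a ratio of 23.7 (95% interval 10.6 to 65.7). The DACT3 ratio was 47.8 without control library 1 and 15.7 without control library 3. In neither gene did the groups come close. MFNG, a glycosyltransferase that modifies Notch, had 3, 7 and 5 control reads and 20, 63 and 35 propionate reads. Its propionate libraries differed 3.19-fold, the widest spread of any member. PGF, a growth factor of the VEGF family, had 6, 4 and 5 control reads and 34, 30 and 33 propionate reads, and both groups were even. HEG1, a transmembrane protein of endothelial junctions, had 4, 4 and 0 control reads and 25, 35 and 32 propionate reads. CEACAM19, a member of the carcinoembryonic antigen family, had 4, 2 and 7 control reads and 28, 38 and 23 propionate reads. The other 9 had 37 to 89 propionate reads, among them LGI4 of myelinating glia, NXPH4, KISS1, which encodes the kisspeptins, RAET1G, a ligand of the NKG2D receptor, the B cell gene TNFRSF13C, NTN5, C1QTNF6 and the chemokine-scavenging receptor ACKR2.

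Secreted and adhesion proteins gave 7 members. LCN10, a lipocalin, had 4, 5 and 2 control reads and 39, 48 and 51 propionate reads, a ratio of 12 (95% interval 6.50 to 24.6). CILP2, a cartilage matrix protein, had 0, 3 and 0 control reads and 16, 50 and 45 propionate reads. Propionate library 1 was the low one for CILP2, still above all control libraries, and the ratio of 35.4 rests on 3 control reads, all in control library 2 (95% interval 11.8 to 174, and 23.4 without control library 3). MXRA8, an immunoglobulin-like adhesion protein, had 5, 3 and 2 control reads and 39, 45 and 25 propionate reads. ITIH4, a plasma protein made by liver, had 8, 3 and 2 control reads and 26, 38 and 30 propionate reads. HPX, the heme carrier of plasma, ADAM12 and the complement protein CFP, with 42 to 76 propionate reads, complete the group.

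Channels and transporters gave 4 members. CLIC3, a chloride intracellular channel protein, had 3, 3 and 1 control reads and 58, 30 and 40 propionate reads, a ratio of 17.5 (95% interval 8.24 to 44.3). TRPM5, a cation channel of taste cells and intestinal tuft cells, had 3, 4 and 6 control reads and 28, 58 and 27 propionate reads. Library 2 was the high one for TRPM5, and its lowest propionate library was still above the control libraries. SCNN1D, a subunit of the epithelial sodium channel family, had 58 propionate reads in all and the cholesterol exporter ABCG1 had 35. TMEM37, related to calcium channel gamma subunits and placed here among the other proteins, had 8, 1 and 3 control reads and 53, 52 and 20 propionate reads.

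Small GTPase, membrane traffic and ubiquitin genes gave 9 members. USP2, a deubiquitinating enzyme, had 0, 3 and 7 control reads and 47, 39 and 52 propionate reads, a ratio of 13.2 (95% interval 6.96 to 28.1) that was 29.1 without control library 3. RAB36, a small GTPase, had 2, 3 and 7 control reads and 28, 32 and 40 propionate reads. For both genes control library 3 was the highest of the control group, and it lay below every propionate library. ASAP3, which activates the GTPase of Arf proteins, had 1, 0 and 1 control reads and 24, 16 and 29 propionate reads, and its ratio of 33.0 has a wide interval of 8.79 to 278 and was 21.9 without control library 2. RNF224, SNX20, SGSM1, TRIM10, CPNE5 and PLEKHG2 had 37 to 75 propionate reads.

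Enzymes of lipid, amino acid and nucleic acid metabolism gave 7 members. PIP5KL1, a relative of the phosphatidylinositol phosphate kinases, had 3, 5 and 2 control reads and 27, 40 and 37 propionate reads. POLN, a DNA polymerase, had 0, 3 and 1 control reads and 24, 37 and 36 propionate reads, a ratio of 23.2 (95% interval 8.77 to 86.8) that was 61.7 without control library 2. POLN overlaps HAUS3 on the same strand, which had control values of 10.6 ± 1.28 CPM and propionate values of 8.36 ± 0.429 CPM (SD, n = 3, edgeR adjusted p = 0.124). ACSBG1, an acyl-CoA synthetase, SPHK1, a sphingosine kinase, GLYATL1, HAL, which breaks down histidine, and DNASE1L2 had 51 to 79 propionate reads. Grouped as binding and carrier proteins inside the cell were CRABP2, HBA2 and COX6B2, though COX6B2 is a subunit of cytochrome c oxidase and not a carrier. CRABP2, which delivers retinoic acid to its receptor, had 4, 7 and 1 control reads and 43, 18 and 34 propionate reads. HBA2, an alpha globin gene, had 1 control read and 11, 16 and 13 propionate reads. The near-identical HBA1 had 1 control read and 7 propionate reads in all, and how reads were split between them is uncertain.

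Cilia and axonemes gave 4 members. TTLL6, which adds glutamate chains to tubulin in cilia, had 1, 3 and 1 control reads and 35, 48 and 26 propionate reads, a ratio of 20.8 (95% interval 8.66 to 65.4) that was 34.7 without control library 2. DNAH10, an axonemal dynein heavy chain, had 73 propionate reads and CFAP43 had 55. The antiviral gene OASL, usually induced by interferon, had 7, 5 and 3 control reads and 29, 34 and 40 propionate reads. It was the only member placed among interferon-induced genes. The muscle genes were TNNT1, a slow skeletal troponin T, with 65 propionate reads, and the myosin kinase MYLK3 with 59.

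Among the 21 other or little known proteins were both members without a control read. FAM212A, whose product inhibits the kinase PAK4, had 23, 16 and 10 propionate reads, at least 15.6-fold higher than control with the sum of the control group set to a floor of 3 reads, while the exact 95% interval of the ratio itself begins at 12.2. FAM167A had 13, 24 and 15 propionate reads, at least 16.6-fold higher by the same floor, with an interval that begins at 13. CCDC148, EFCAB12, TMEM92, RTN2 and TMEM169 had 4 to 7 control reads and 53 to 87 propionate reads. Of the members, 10 were antisense, long noncoding or unnamed loci, with 34 to 76 propionate reads. ALDH1L1-AS2 had 1, 2 and 5 control reads and 35, 13 and 19 propionate reads, while the sense gene ALDH1L1 was at 10.5 ± 0.968 and 10.5 ± 0.912 CPM (SD, n = 3). PRKAR2A-AS1 had 1, 10 and 1 control reads and 32, 14 and 15 propionate reads, while PRKAR2A was at 14.1 ± 2.32 and 14.8 ± 1.86 CPM. Whether reads were counted by strand is not given in the labels, so reads of such pairs cannot be told apart.

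**Figure D3:**
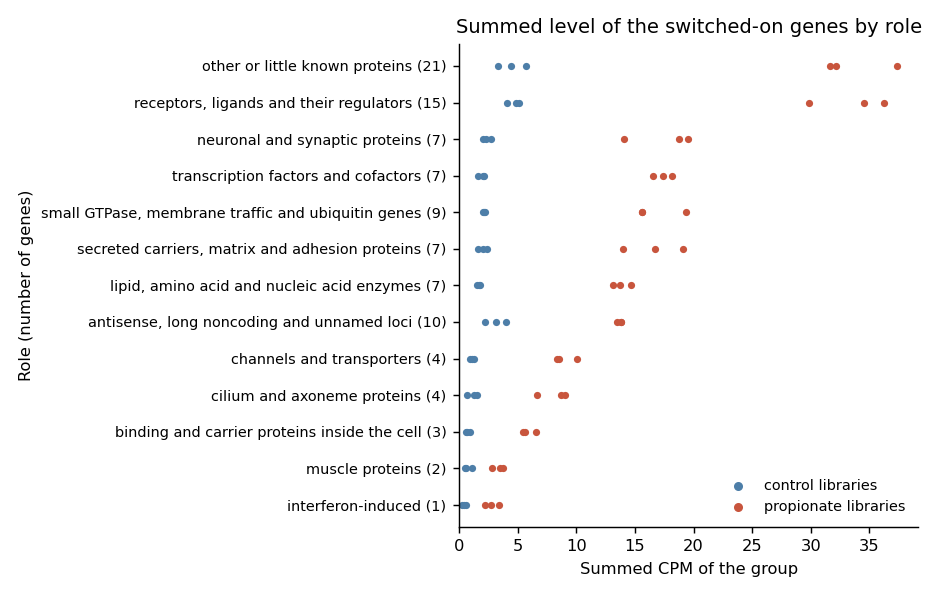
Summed CPM (x axis) of the members of each role (y axis, with the number of genes) in the control libraries (blue points) and propionate libraries (red points). The 15 receptors, ligands and their regulators summed to 4.10 to 5.07 CPM in control and 29.8 to 36.2 CPM with propionate.

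The thresholds cut through a continuous range of values. MPP2 (5, 6 and 4 control reads, then 10, 14 and 20), CFAP43 (3, 7 and 5, then 28, 16 and 11) and POU4F1 lay just inside the control limit. TMEM86A (6, 5 and 5, then 25, 40 and 19), C9orf173 (6, 6 and 4, then 20, 55 and 17) and MAP3K14-AS1 (3, 6 and 7, then 29, 18 and 16) lay just outside with 16 control reads. At the propionate minimum, FALEC (5, 3 and 6, then 12, 23 and 10) and CFP (4, 4 and 5, then 17, 10 and 15) lay inside beside MPP2. LAG3, an inhibitory receptor of T cells, had no control read and 13, 12 and 9 propionate reads, and APH1B (0, 2 and 2, then 15, 12 and 9) and LOC101928489 (1, 2 and 2, then 9, 15 and 10) also lay outside. Symbols that otherwise met the rule numbered 10 at a control sum of 16 and 9 at 15, and 27 at a lowest propionate library of 9 and 11 at 10.

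Genes next to the members were examined because the rule did not use their values. The nearest tested gene on each side that was not a member gave 190 genes in RefSeq order. Of these, 52 (27.4%) were called higher and 19 (10.0%) lower by edgeR, where 16.7% and 17.1% of all tested genes outside the rule were. Their median log2 fold change was 0.11, against -0.01 in all tested genes. The 171 neighbours that do not overlap their member gave 47 higher (27.5%) and 18 lower (10.5%). With 2 genes on each side, 92 of 378 (24.3%) were higher and 47 (12.4%) lower, so the share was smaller when the more distant genes were added. Neighbours on the member's strand were higher in 21 of 86 cases (24.4%) and those on the opposite strand in 30 of 94 (31.9%). The difference from other genes was not tested. At least 1 higher neighbour stood beside 44 of the 97 members. The same count was not made for other genes, so nothing is read from it.

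**Figure D4:**
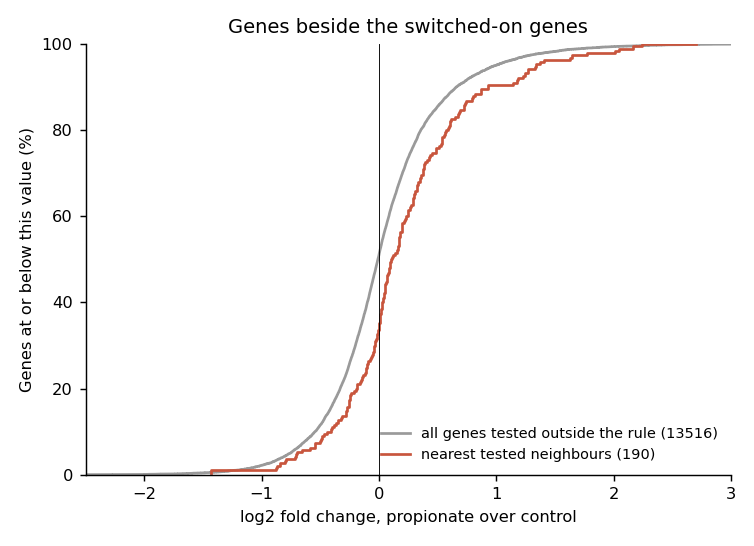
Cumulative share of genes (y axis, percent) by log2 fold change of propionate over control (x axis) for the 190 nearest tested neighbours of the members (red) and all genes tested outside the rule (grey). The red curve lies to the right of the grey one over most of its range, with medians of 0.11 and -0.01.

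The 4 higher neighbours with the smallest p were CYSRT1, HELZ2, KCTD17 and SLC27A1. CYSRT1, a cysteine-rich tail protein gene beside RNF224, went from 8.18 ± 1.25 to 53.2 ± 2.38 CPM (SD, n = 3), a log2 fold change of 2.70 (edgeR adjusted p = 3.63e-11). HELZ2, a helicase and nuclear receptor coactivator beside C20orf195, rose by 1.27 on the log2 scale from 19.0 ± 1.32 CPM. KCTD17 beside C1QTNF6 rose by 1.41 on the log2 scale, and SLC27A1, a fatty acid transporter beside TMEM221, by 1.62. The 4 lower ones with the smallest p were CTPS1, RBM22, ZFP91-CNTF and PPIL1. CTPS1, which makes CTP and lies beside CITED4, was at 66.3 ± 4.61 and 38.1 ± 2.52 CPM (edgeR adjusted p = 5.44e-06). RBM22, a splicing factor beside SYNPO, was at 72.8 ± 4.43 and 41.8 ± 5.41 CPM (edgeR adjusted p = 1.02e-05). SYNPO and CITED4 thus had reads appear next to a gene that fell. ZFP91-CNTF, a readthrough locus that shares sequence with ZFP91, lay beside GLYATL1, and PPIL1 beside CPNE5.

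Some members lie over other genes. Of the 92 members found in GENCODE release 29, 28 overlap another symbol and 25 overlap one on the opposite strand. Of the members, 5 overlap a gene called higher. RTN2, a reticulon, overlaps PPM1N on the opposite strand, which had control values of 1.43 ± 0.434 CPM and propionate values of 6.76 ± 2.50 CPM (log2 fold change 2.24, edgeR adjusted p = 2.91e-05). LEMD1 overlaps the long noncoding RNA BLACAT1 on the same strand, with 1.4 ± 0.352 and 4.37 ± 1.47 CPM. NHLRC4 overlaps PIGQ on the same strand, DNAH10 overlaps CCDC92 and ACSBG1 overlaps IDH3A on the opposite strand. In these 5 pairs the reads of one gene may have been counted for the other, which was not tested. The members were spread over the genome, and LOC101927272 and SNX20 were the only pair that stood next to each other. Chromosome 19 held 13 members (13.4%, against 6.49% of all symbols), chromosome 16 held 10 (10.3% against 4.03%) and chromosome 22 held 7 (7.22% against 2.24%). Tested genes outside the rule were called higher in 25.2% of cases on chromosome 19, 24.2% on 16 and 22.1% on 22, all above the 16.7% of the whole genome. The same share was 23.6% on chromosome 17 and 20.9% on chromosome 11, which held 5.15% and 6.19% of the members against 5.62% and 6.08% of all symbols.

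The members' transcripts ended in sequence rich in G and C. The last 500 bases of the longest GENCODE transcript had a median of 52.7% G and C in the 92 members found. The median was 44.4% in 4693 other symbols that were near silent in control with a read in any library, and 42.6% in 13188 tested genes. Base composition moved with the calls in general. When tested genes outside the rule were ranked by this measure into 5 groups of equal size, 9.61% were called higher in the poorest group and 29.2% in the richest. Of the 92 members, 40 fell in the range of the richest group and 5 in that of the poorest. The neighbours had a median of 51.0%. In the richest group 23 of 73 neighbours (31.5%) were called higher, close to the 29.2% of that group, and in the next 10 of 41 (24.4%) against 18.5%. In the middle group 15 of 35 neighbours (42.9%) were called higher against 15%. The next poorer group went the other way with 2 of 26 (7.69%) against 11.7%, and the poorest held 2 of 12 (16.7%) against 9.61%.

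**Figure D5:**
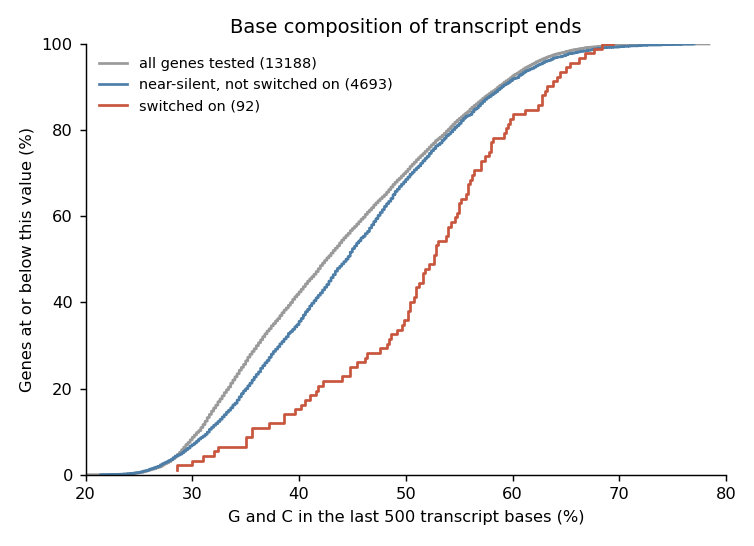
Cumulative share of genes (y axis, percent) by the percent of G and C in the last 500 transcript bases (x axis) for the 92 members found (red), 4693 other near-silent symbols (blue) and 13188 tested genes (grey). The red curve lies to the right, with medians of 52.7%, 44.4% and 42.6%.

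Lists of tissue-restricted genes were counted with the members left out. Genes without enough reads could not be tested, and a gene raised from a low level passes the filter more easily than one that stays low. The counts below stand beside 16.7% higher and 17.1% lower among all tested genes outside the rule. Of 19 tested synaptic vesicle and granule genes, 8 were higher and 1 lower, with a median log2 fold change of 0.34, and SYNGR3 was a member. STX1A, the syntaxin of vesicle fusion, rose from 6.77 ± 0.394 to 20.7 ± 3.07 CPM (edgeR adjusted p = 5.10e-07). RAB3A and DNM1, also genes of vesicle traffic, rose by 1.49 and 1.17 on the log2 scale. The lower gene of this list was SYT1, which fell by 1.41 on the log2 scale (edgeR adjusted p = 0.00777). Of 13 tested genes of the neuronal cytoskeleton and axon growth, 4 were higher and 1 lower, and MAP1A was a member. TUBB3, the neuronal beta tubulin, rose from 37.7 ± 2.75 to 90.1 ± 10.7 CPM, and STMN3 and KIF3C rose by 0.64 and 1.49 on the log2 scale. Neurotransmitter receptors and scaffolds gave 3 higher and 0 lower of 20, a share of higher genes below that of all tested genes, with GRM4 and GRIN2D among those that rose. Neural adhesion genes gave 5 higher and 2 lower of 15. With the replicate block the lower genes were 2 in the vesicle list and 1 in the receptor list.

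In the lists that follow, the shares to compare are again 16.7% higher and 17.1% lower among all tested genes outside the rule. Of 22 tested cilium and axoneme genes, 8 were higher and 0 lower (1 lower with the replicate block), with a median log2 fold change of 0.44, and DNAH10 and TTLL6 were members. RFX2, a factor that switches on cilium genes, rose from 1.19 ± 0.380 to 5.75 ± 1.38 CPM (edgeR adjusted p = 2.62e-05). DNAAF3, which assembles dynein arms, rose by 1.97 on the log2 scale, RSPH1 by 0.59 and IFT57 by 0.41. Muscle genes gave 4 higher and 0 lower of 19, with TNNI3, CKB and MYH3 among those that rose, and TNNT1 was a member. Developmental transcription factors gave 5 higher and 3 lower of 20, with MSX2 and DLX3 higher and EN1 lower. GLI1 and POU4F1 were the members in that list. Leukocyte genes gave 4 higher and 2 lower of 19, near the share of all tested genes, and GATA3 was among the members in that list. CORO1A, an actin-binding coronin of blood cells, rose by 2.52 on the log2 scale, and LYZ fell by 0.76. Germline and cancer-testis genes gave 2 higher and 1 lower of 13 (2 lower with the replicate block). Their share of risers was no higher than that of all tested genes. None of the 61 genes in this list was a member, but the list is not complete, so members outside it may be such genes. Peptide hormone and growth factor genes gave 3 higher and 0 lower of 18, with ADM2 and NRTN among those that rose, and PGF was a member.

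Relatives of the 25 members with most reads, genes that share the letters of the symbol, were also counted. Of the 25, 14 had relatives outside the rule, 141 in all, of which 79 were tested. Of these, 21 (26.6%) were called higher and 6 (7.59%) lower, beside 16.7% and 17.1% of all tested genes outside the rule. RAB genes made up 49 of the 79, with 14 higher and 4 lower, so this count is mostly theirs. RAB3D and RAB26, GTPases of secretory granules, rose by 0.89 and 1.28 on the log2 scale, and RAB15 and RAB2B fell by 0.50 and 0.72. CLIC5 rose from 0.743 ± 0.264 to 2.77 ± 0.397 CPM, TTLL7 by 1.17 and TTLL3 by 0.96 on the log2 scale. Beside SOX8, SOX4 fell from 952 ± 99.6 to 526 ± 104 CPM (edgeR adjusted p = 1.07e-05). SOX9, a factor of the intestinal crypt, was at 358 ± 28.4 and 386 ± 16.3 CPM (edgeR adjusted p = 0.316). TRPM2 fell from 30.8 ± 5.88 to 19.5 ± 4.54 CPM, while TRPM5 was a member.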

How the data were processed

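RNA of 6 LS 174T libraries, 3 per group by the sample titles, was sequenced from 500 ng of total RNA, per the labels' protocols. Values are raw counts of reads by gene symbol, deposited by the authors as 1 table per library. The submitters' processing notes name Bowtie2, edgeR, hg19 and GRCh37, with no role. Counting tool, strandedness and annotation: not given in the sources used here. No molecular identifiers are recorded. Each table has 25737 lines, and counts of the 286 symbols on several lines were summed. No member shares all 6 counts with another symbol.

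The members, the gene lists and the alternatives were chosen with earlier results of these data known. Counts of all symbols were tested with the edgeR 4.0.16 quasi-likelihood F test (R 4.3.3), two-sided, with TMM factors, filterByExpr, no covariate, a prior count of 0.125 and Benjamini-Hochberg adjusted p under 0.05. The fit was tested on simulated data. Ratios of summed reads over library totals carry exact binomial 95% intervals (SciPy 1.17.1), and a control sum of 0 was set to 3 reads. Neighbours and chromosomes came from the gene positions of RefSeq (GRCh38.p14), and overlaps, strands and transcript ends from GENCODE release 29. The submitters' notes name another build, so the counts were matched to these positions by gene symbol or synonym. Described by library were the 25 members with most propionate reads, those with no control read, and the 3 symbols on each side of each threshold. HPX, ASAP3, RAPSN, HBA2 and the antisense members were singled out after their values were seen. From each list up to 4 genes per direction were named, and the 4 neighbours per direction with the smallest p.

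Libraries with the same replicate number had correlated deviations from their group means (0.244, 0.401 and 0.445 over genes above 10 CPM), above the 0.1 taken to mean pairing. This pairing comes from the data and no label states it. Counts of libraries in 1 group differed beyond sampling error (chi-square over degrees of freedom 6.01 to 8.85). Alternatives were DESeq2 1.42.0, other scalings and filters, other limits of the rule, the replicate block and leaving out each library. Some members and list genes are not reported here by name. Neighbours without overlap and ratios without each library were added after seeing the data.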

Additional observations from a re-analysis of the deposited data

How the results depend on the processing

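The number of switched-on genes, 97, follows the limits: it was 52 with a limit of 10 control reads, 164 with 20, 150 with a minimum of 8 propionate reads and 55 with 15. The mirrored count of 13 became 3, 24, 19 and 2 under the same changes. Scaling reads to the smallest library gave 86 and 13. Leaving out a library in turn, with the limit scaled, gave 103 to 148 switched on and 12 to 23 switched off. Fewer libraries then had to reach the minimum. With 2 neighbours on each side the counts were 92 higher and 47 lower, of 378 genes. Leaving out a library gave 41 to 48 higher and 13 to 18 lower neighbours, and other scalings, filters and DESeq2 gave 43 to 54 and 16 to 20. The replicate block gave 62 higher and 28 lower neighbours and 2980 higher and 3074 lower genes in all. The block changed no call of the genes named outside the rule. Log2 fold changes of 27 members, tried 216 times, did not reverse, and 30 values moved by more than the spread between libraries, over a range of 2.23 to 8.19. At 0 to 15 control reads the ratios are imprecise, and a gene at 0 may be transcribed below this depth.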

Other observations

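Genes of enzymes and complexes that act on chromatin were tested beside the members. Of 10 tested zinc-dependent histone deacetylase genes, 4 were higher and 1 lower by edgeR (2 lower with the replicate block). HDAC11 rose from 7.35 ± 0.680 to 18.0 ± 1.4 CPM (SD, n = 3, edgeR adjusted p = 4.20e-06), and HDAC10 and HDAC3 rose by 0.78 and 0.44 on the log2 scale. HDAC7, a class IIa deacetylase, fell by 0.35 on the log2 scale. Of 45 tested genes of the REST corepressor and Polycomb list, 7 were higher and 14 lower, where 17.2% and 17.0% of all tested genes were. That list also holds genes that act on DNA methylation, TET2 and UHRF1 among them, so the counts are not of corepressor and Polycomb genes alone. The Polycomb chromobox gene CBX6 rose by 1.37 on the log2 scale. TET2, which oxidises methylcytosine, fell from 33.1 ± 1.97 to 15 ± 0.550 CPM (edgeR adjusted p = 7.67e-07). The Polycomb genes PHF19 and EZH2 fell by 0.70 and 0.40 on the log2 scale, and UHRF1, which maintains DNA methylation, by 0.75.

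Among all tested genes 17.2% were higher and 17.0% lower. Epidermal genes gave 5 higher and 3 lower of 27, close to these shares, and 8 higher with the replicate block, while voltage-gated sodium and calcium channel genes gave 3 higher and 0 lower of 7. No member of the switched-on set belonged to either list.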
